A study of Mus musculus with 2 samples.

Results

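Elastic fibre genes were examined in mouse ureter explants, some of which were exposed to NOGGIN, an extracellular antagonist that captures bone morphogenetic proteins (BMPs) before they can reach a receptor. The set holds 10 genes, Eln, Fbn1, Fbn2, Fbln1, Fbln2, Fbln5, Mfap2, Mfap4, Mfap5 and Lox, chosen by name and found on the arrays through the accessions of their probes. All 10 were measured, by 15 of the 39429 probes on each array, and they are 10 of 21316 genes that entered the test. The ureters came from wildtype embryos of the NMRI strain, of mixed sex, at E12.5, and were kept on transwell membranes for 18 h. The NOGGIN cultures had 10 µg/ml NOGGIN in the medium, and the control cultures had none. Measurements come from 2 dual-colour Agilent arrays, replicates 1 and 2, each carrying RNA of 1 NOGGIN culture and 1 control culture, with the dyes exchanged between the arrays. The labels name neither the number of embryos pooled per culture nor their litters, so the spread between replicates may be technical.

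Elastic fibres give stretch and recoil to tubes that are repeatedly distended, such as arteries, lung and ureter. They are built on microfibrils, bundles of the glycoproteins fibrillin 1 and fibrillin 2 with small associated glycoproteins, onto which tropoelastin, the soluble product of Eln, is deposited. Fibulins help to assemble tropoelastin on the microfibrils, and lysyl oxidases then cross-link it into insoluble elastin. In the embryo this matrix is made by mesenchymal cells and by the smooth muscle cells that differentiate from them.

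Both conditions lie on every array, and both arrays lie on 1 slide that was scanned in 1 session, so neither is confounded with the treatment. By channel, 67.3% to 74.3% of gene spots were well above background, and 0 spots were saturated. The median raw signal followed the dye, with 288.3 in the NOGGIN channel and 520.7 in the control channel of replicate 1, against 531.8 in the NOGGIN channel and 310.6 in the control channel of replicate 2. Each elastic fibre probe has 4 spots per array, and all of them were well above background in every channel. Log2 ratios are given as NOGGIN-labelled over control-labelled channel after loess normalisation, which removes the intensity-dependent dye effect, as mean ± SD over the arrays (n = 2). With the dyes exchanged, a dye effect particular to a gene cannot be told apart from a difference between the replicates. Levels are log2 normalised signals of a channel, and they are compared only within a probe.

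Every ratio is oriented by the dye that the labels assign to each culture, and the direction cannot be settled from these files. Id2 and Id1, which BMP signalling switches on through SMAD factors, were higher in the NOGGIN-labelled channel, with log2 ratios of 2.12 and 3.34 for Id2 and 1.54 and 2.41 for Id1 on replicates 1 and 2. All 5 BMP target genes listed, Id1, Id2, Id3, Smad6 and Smad7, passed the test in that direction, which is opposite to what blocking BMPs is known to do. The authors' deposited table, which gives 1 signed fold change per probe and array, has the opposite sign for the same arrays, with -4.19 and -10.5 for Id2 and -1.22 and -1.24 for Eln. Throughout, "higher" and "lower" describe the channel labelled NOGGIN. Likewise, values given for NOGGIN cultures or control cultures are those of the channels so labelled. If the labels were exchanged, every sign would turn and every size, total and p-value would stay.

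With the probe of highest signal for each gene, the ratios of the elastic fibre genes lay between -0.30 and 0.29, on both sides of 0. With limma, 0 of the 10 passed an adjusted p of 0.05 over all genes, where 1704 genes (7.99%) passed, 843 higher (3.95%) and 861 lower (4.04%), and in a set of this size a count of 0 is near that background. At an unadjusted limma p of 0.05, 6 of the 10 passed, against 23.2% of all genes, but 3 of the 10 did with Agilent's processed signals, with median centring or with the deposited table's values. Also, 0 of the 10 reached 1.5-fold in 1 direction on both arrays, which 618 genes (2.9%) did. The 95% interval of the ratio with these probes lay within 1.5-fold either way for all 10. It did so for 89.3% of all genes. A second probe of Lox, described below, had a mean that was 1.56-fold lower. A p that misses the threshold does not show that a gene was equal in both conditions. Of the 10 genes, 5 were above 0 on both arrays, 4 below 0 on both and 1, Fbn1, near 0 with opposite signs. In the channel levels, 7 of the 10 had NOGGIN and control values that did not overlap, against 51.2% of all genes. The median ratio of the 10 was 0.052, with 0.091 on replicate 1 and -0.0014 on replicate 2, and that of all genes was 0.00084. The median size of the ratio, sign left aside, was 0.24 for the 10 and 0.10 for all genes. These medians are not at like signal, since the 10 had raw signals from 1895 upward and all genes include dimmer probes. RNA of whole ureters was measured, so fewer cells of a type and less RNA per cell cannot be told apart in these values.

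**Figure D1:**
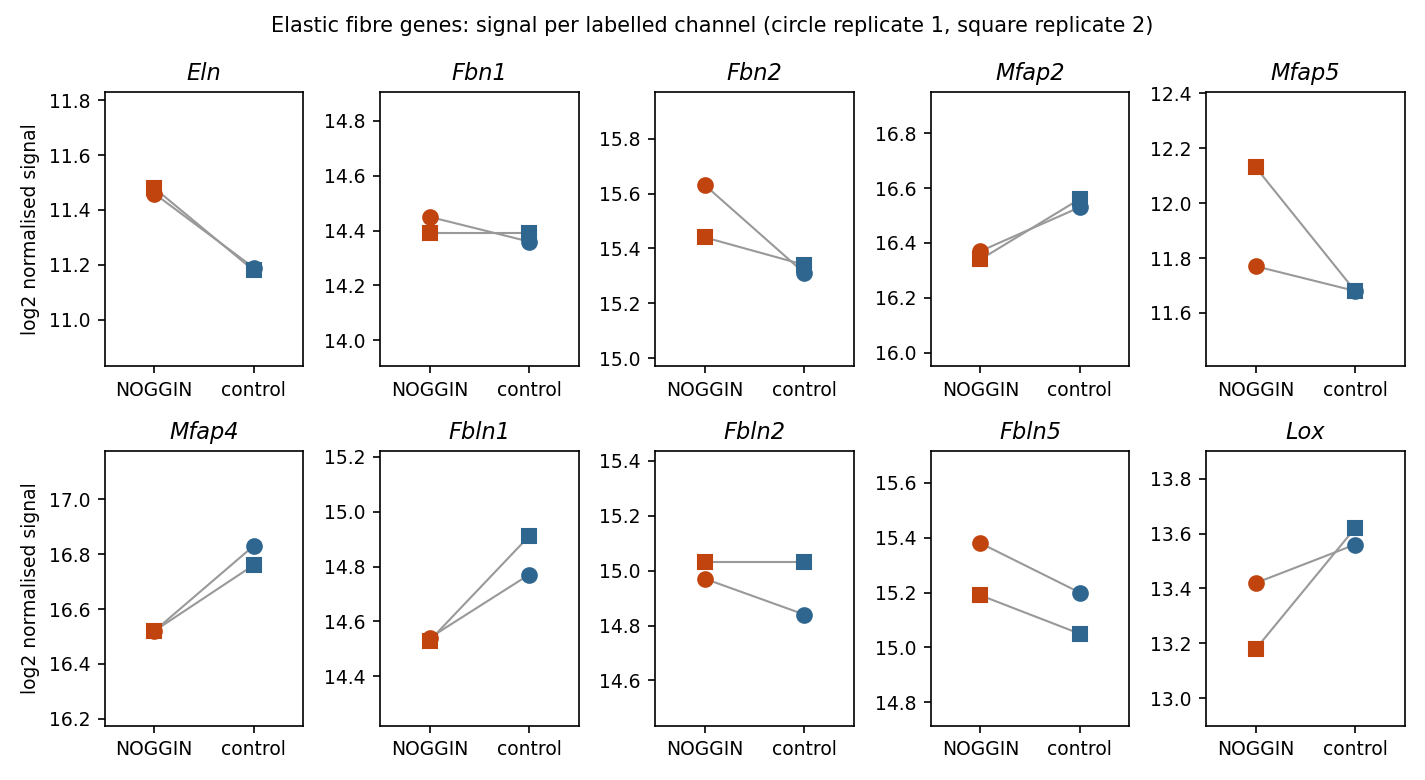
Log2 normalised signal of the probe used for each of the 10 elastic fibre genes, in the NOGGIN-labelled and control-labelled channels; circles are replicate 1, squares replicate 2, a line joins the channels of 1 array, and every panel spans 1 log2 unit. Eln is near 11.5 in both NOGGIN channels and 11.2 in both control channels, Mfap4 and Fbln1 slope the other way, and Fbn1 is almost level.

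Elastin itself stood at 1.22-fold. Eln, which encodes tropoelastin, had levels of 11.46 and 11.48 in the NOGGIN channels of replicates 1 and 2, against 11.19 and 11.18 in the control channels. Both NOGGIN values lay above both control values, and within a condition the arrays were close to each other. The log2 ratio was 0.29 ± 0.022, with a 95% interval of 0.10 to 0.47, and it did not pass (limma adjusted p = 0.0882). Its arrays gave 0.27 and 0.30, which differ by 0.031, against a median gap of 0.12 over all genes. In the deposited table, too, the size was alike on both arrays.

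The fibrillins, which form the backbone of the microfibril, had small ratios. Fbn1 had levels of 14.45 and 14.39 in NOGGIN cultures, against 14.36 and 14.39 in control cultures, a ratio of 0.041 ± 0.063 (interval -0.15 to 0.23; limma adjusted p = 0.803). On replicate 2 the conditions were equal to the second decimal. Fbn2, the fibrillin that predominates in the embryo, had 15.63 and 15.44 in NOGGIN cultures, against 15.31 and 15.34 in control cultures. These did not overlap, but the excess came mostly from replicate 1, with 0.33 against 0.10 on replicate 2, so that the ratio was 0.21 ± 0.16 (interval -0.0099 to 0.44; limma adjusted p = 0.2315). A second Fbn2 probe gave -0.047 and 0.093 on replicates 1 and 2, a mean of 0.023 ± 0.099. The probes of Fbn2 therefore disagreed on replicate 1 in sign as well as in size.

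Of the microfibril-associated glycoproteins, Mfap2 and Mfap5 differed in sign. Mfap2, which encodes a small glycoprotein bound to fibrillin, had 16.37 and 16.34 in NOGGIN cultures, against 16.53 and 16.56 in control cultures. Both NOGGIN values lay below both control values, at a ratio of -0.19 ± 0.041 (interval -0.38 to -0.0061; limma adjusted p = 0.2035), and a second probe gave -0.21 ± 0.14. Mfap5, its close relative, had 11.77 and 12.13 in NOGGIN cultures, against 11.68 in both control cultures. Its ratio was 0.27 ± 0.25 (interval 0.0020 to 0.54; limma adjusted p = 0.2126). Here the arrays differed most among the 10 genes, 0.096 on replicate 1 and 0.45 on replicate 2, while the spots of the probe within an array had SDs of 0.071 and 0.053. The difference between Mfap2 and Mfap5 was not tested.

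Mfap4, whose product binds both fibrillin and tropoelastin, had 16.52 in both NOGGIN cultures, against 16.83 and 16.76 in control cultures. The conditions did not overlap, and the ratio was -0.27 ± 0.053 (interval -0.46 to -0.083; limma adjusted p = 0.104), a 1.21-fold lower level. It has 1 probe here, and its arrays gave -0.31 and -0.23.

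The fibulins differed among themselves in sign. Fbln1 encodes a fibulin found in elastic fibres and around vessels, and its product binds fibronectin. It had levels of 14.54 and 14.53 in NOGGIN cultures, against 14.77 and 14.91 in control cultures, the NOGGIN values below both control values. Its ratio was -0.30 ± 0.11, with an interval of -0.51 to -0.10 (limma adjusted p = 0.0953). That ratio was the largest in size of the 10 with these probes and this processing. With the mean of a gene's probes Lox was larger in size, at -0.46. With the deposited table's values, signs turned, Eln at 0.30 was larger in size than Fbln1 at -0.28. A second Fbln1 probe gave -0.29 ± 0.092. Fbln5, which in mice is required for elastic fibre assembly and brings tropoelastin to cell-surface integrins, had 15.38 and 15.19 in NOGGIN cultures, against 15.2 and 15.05 in control cultures. The conditions overlapped slightly, since replicate 1 was higher than replicate 2 in both of them. Within arrays the ratio was 0.18 and 0.14, a mean of 0.16 ± 0.031 (interval -0.027 to 0.34; limma adjusted p = 0.276). A second Fbln5 probe, whose signal was near 8 in every channel, gave 0.16 and 0.098. Fbln2, which is abundant in embryonic vessels and heart valves, had 14.97 and 15.03 in NOGGIN cultures, against 14.84 and 15.03 in control cultures, a ratio of 0.063 ± 0.089 (interval -0.13 to 0.26; limma adjusted p = 0.697). All of its ratio came from replicate 1, at 0.13, since replicate 2 gave 0.00025.

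The upstream sequences of Fbln5 and Fbln1 are shown for the signs of their ratios. With the reported processing each gave 1 sign with both probes and on both arrays, opposite to the other gene. The printed sequences are the 250 bases before the outermost of the starts listed for each gene, from RefSeq (GRCm38.p6), 5′ to 3′ on the gene's strand. Capitals mark GGCGCC, a GC-rich sequence that BMP-activated SMADs are known to bind, and GGGCGG or its reverse complement CCGCCC, the GC box of Sp1-type factors. Fbln5 lies on the minus strand, at chr12:101819120-101819369, and Fbln1 on the plus strand, at chr15:85205699-85205948.
Fbln5: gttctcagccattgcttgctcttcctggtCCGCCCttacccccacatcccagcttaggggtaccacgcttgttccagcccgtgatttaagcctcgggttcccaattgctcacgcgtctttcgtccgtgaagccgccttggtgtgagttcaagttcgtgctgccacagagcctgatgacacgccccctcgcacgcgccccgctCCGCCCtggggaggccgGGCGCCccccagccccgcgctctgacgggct
Fbln1: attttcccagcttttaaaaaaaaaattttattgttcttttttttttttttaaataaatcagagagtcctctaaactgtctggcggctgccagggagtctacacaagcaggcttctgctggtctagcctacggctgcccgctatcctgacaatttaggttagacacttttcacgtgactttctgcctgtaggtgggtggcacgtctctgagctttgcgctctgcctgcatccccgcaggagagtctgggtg
GGCGCC reads the same on both strands and occurs 25 bases before the start of Fbln5, where it shares no base with the 2 GC boxes of that window. The printed window of Fbln1 holds neither sequence. RefSeq promoter entries were found for 5 of the 10 genes, Fbn1, Fbln1, Fbln2, Fbln5 and Mfap2, in 8 windows. Of these windows 2 had GGCGCC, both of Fbln5, against 9.59% of 32851 promoter windows of the mouse, and 5 of the 8 windows had GGGCGG, against 32.7%. TATAAA was in 0 of the 8 windows, against 12.4% of all, and the CArG box of serum response factor in 0, against 1.47%. Both strands were searched. GC content was 65.2% in the printed Fbln5 window and 46.4% in the printed Fbln1 window, but 49.6% in the other Fbln5 window and 62.4% in the other Fbln1 window, with a median of 52.4% over all windows. That other Fbln1 window holds 1 GC box, and the other Fbln5 window holds 0. These matches are descriptions of letters and no evidence of binding.

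Lox, which encodes the lysyl oxidase that cross-links elastin and collagen, is the gene whose probes differed most among the 5 that have 2 probes. The probe with the higher signal had levels of 13.42 and 13.18 in NOGGIN cultures, against 13.56 and 13.62 in control cultures. Its ratio was -0.29 ± 0.21 (interval -0.54 to -0.040; limma adjusted p = 0.162), made of -0.14 on replicate 1 and -0.44 on replicate 2. The second probe had 12.08 and 12.24 in NOGGIN cultures, against 12.89 and 12.7 in control cultures. Its ratio was -0.64 ± 0.24, 1.56-fold lower, with -0.81 on replicate 1 and -0.46 on replicate 2. Both probes were thus below 0 on both arrays, and they gave nearly the same value on replicate 2 only. The second probe passed when p-values were adjusted over all 26691 probes (limma adjusted p = 0.0258), a test added after the data were seen. The mean of the 2 probes was -0.46 and passed as well (limma adjusted p = 0.0228), the call of this gene thereby depending on the probe. The authors' deposited table, whose sign is opposite to that of the ratios here, gives signed fold changes of 1.80 and 1.41 for the second probe. For the first probe it gives 1.08 and 1.37.

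**Figure D2:**
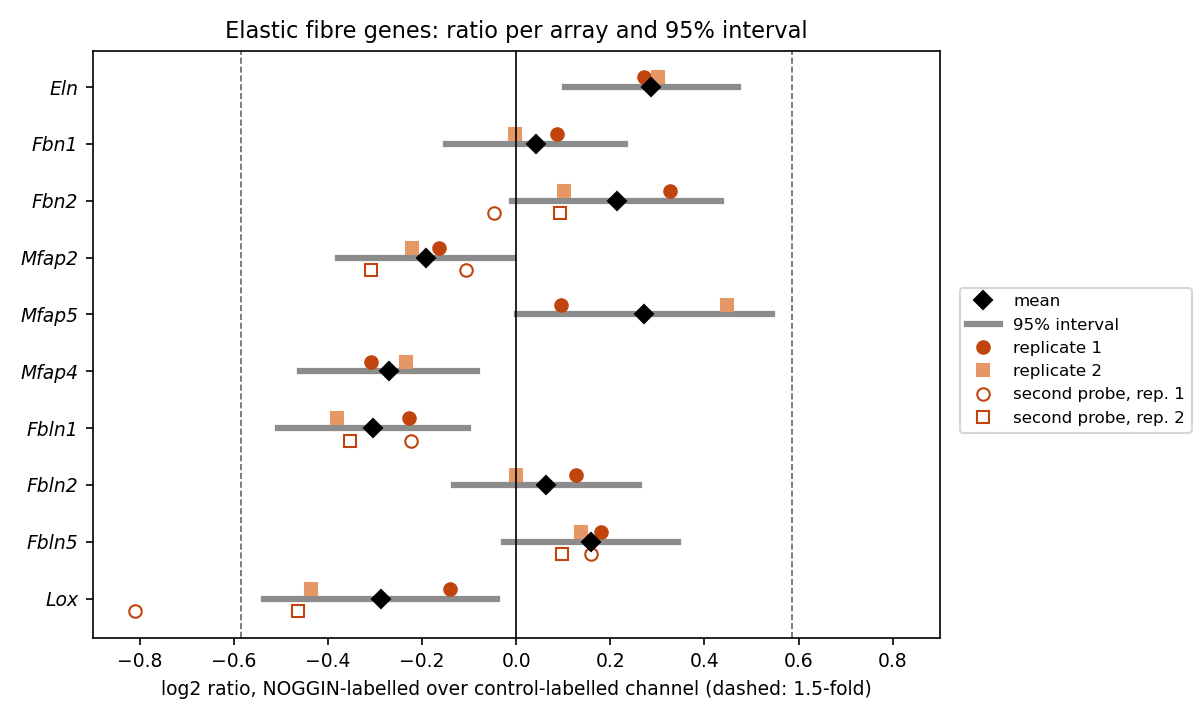
Log2 ratio of NOGGIN-labelled over control-labelled channel for the 10 elastic fibre genes; filled circles and squares are replicates 1 and 2, diamonds their mean, bars the 95% interval from limma, open symbols the second probe where a gene has one, and dashed lines 1.5-fold. All 10 intervals stay inside the dashed lines, and the second Lox probe on replicate 1, at -0.81, lies outside them.

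The arrays differed by unequal amounts from gene to gene. For the 10 genes the SD between spots of 1 probe on 1 array was 0.0096 to 0.079, with a median of 0.030, and the ratios of the 2 arrays differed by 0.031 to 0.35, with a median of 0.11. Fbn2, Mfap5 and Lox were the 3 genes whose arrays differed by more than 0.2. Eln, Fbln5, Mfap2 and Mfap4 had the closest arrays.

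Among the enzymes and cofactors of cross-linking, which are not members of the set, several passed where Lox with its first probe did not. Of 9 measured genes of 10 listed, 1 was higher, 4 were lower and 4 did not pass, with a list median of -0.37. Loxl1, the lysyl oxidase-like enzyme that in mice is needed to maintain elastic fibres, had 13.02 and 12.99 in NOGGIN cultures, against 13.82 and 13.87 in control cultures. It was lower at -0.84 ± 0.064, a 1.79-fold difference (limma adjusted p = 0.00711), and its other probe gave -0.76. Loxl2, an enzyme acting on basement membrane collagen, had 14.53 and 14.43 in NOGGIN cultures, against 15.04 and 15.2 in control cultures (-0.64 ± 0.19; limma adjusted p = 0.0220). Its other probes gave -0.98 and -0.84. The other 2 lower genes were Pcolce and Loxl4. Pcolce, an enhancer of procollagen processing, was at -0.55 ± 0.035 (limma adjusted p = 0.0180). Loxl4 was at -0.53 ± 0.068 (limma adjusted p = 0.0211), and at -0.84 with the deposited table's values, signs turned. The other Loxl4 probe gave -0.65. Pcolce2, the relative of Pcolce, was the higher gene at 0.52 ± 0.13 (limma adjusted p = 0.0278) and was named after its value was seen. The proteinase genes Bmp1 and Tll1, whose products release active lysyl oxidase, were at -0.040 and -0.37. Neither passed, and the same holds for Loxl3 at 0.033 and the copper transporter gene Atp7a at 0.10.

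Fibulins outside the set were measured for 4 of 5 genes listed, of which 0 were higher, 2 lower and 2 did not pass, with a median of -0.26. Hmcn1, which encodes the very large fibulin hemicentin 1, had 11.95 and 11.89 in NOGGIN cultures, against 12.55 and 12.59 in control cultures (-0.65 ± 0.070; limma adjusted p = 0.0126; other probe -0.72). Efemp1, or fibulin 3, was lower at -0.43 ± 0.13 (limma adjusted p = 0.0441), and this call was lost with the deposited table's values (limma adjusted p = 0.0724) and in 4 more settings. Efemp2, or fibulin 4, which in mice is required for elastin cross-linking, was at -0.083 ± 0.031 and did not pass (limma adjusted p = 0.566). Nor did Fbln7, at 0.32 ± 0.21 (limma adjusted p = 0.136).

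Genes listed because their proteins bind microfibrils, or are only named for them, went both ways. Of 23 measured of 24 listed, 3 were higher, 4 lower and 16 did not pass, with a median of -0.035. Ltbp1, whose product anchors latent TGF-beta to microfibrils, had 14.3 and 14.1 in NOGGIN cultures, against 13.51 and 13.55 in control cultures (0.67 ± 0.17; limma adjusted p = 0.0180). Adamtsl4, a fibrillin-binding protein gene, was higher at 0.64 ± 0.095 (limma adjusted p = 0.0144) and Mmrn1, of the EMILIN family, at 0.53 ± 0.039 (limma adjusted p = 0.0195). On the lower side Adamts17, a secreted metalloproteinase gene, was at -0.51 ± 0.18 (limma adjusted p = 0.0372), though its other probe gave -0.27 and the call was lost in 4 of the other settings. The other 3 lower genes, named after their values were seen, were Ltbp2, Thsd4 and the proteoglycan gene Dcn. Ltbp2 was at -0.50 ± 0.21 (limma adjusted p = 0.04585), with -0.65 and -0.35 on replicates 1 and 2. Thsd4 was at -0.50 ± 0.145 (limma adjusted p = 0.0324) and Dcn at -0.39 ± 0.014 (limma adjusted p = 0.0408). These 3 genes were not followed singly through the other settings. With the deposited table's values 3 genes of the list passed in limma.

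Turnover and cell contact were covered by lists of elastases with their inhibitors and of fibronectin with integrins. Of 12 measured elastase and inhibitor genes of 13 listed, 2 were higher, 1 lower and 9 did not pass, with a median of -0.039. Timp4, a metalloproteinase inhibitor gene, had 8.47 and 8.36 in NOGGIN cultures, against 7.42 and 7.36 in control cultures. It was higher at 1.03 ± 0.036, or 2.04-fold (limma adjusted p = 0.00466). Its ratio was 1.56 with Agilent's processed signals and with the deposited table's values, signs turned. Mmp12, macrophage elastase, was higher at 0.72 ± 0.017 (limma adjusted p = 0.00906). Of 7 macrophage markers 0 passed (4 at an unadjusted limma p of 0.05), with a median of -0.27. On both arrays 4 of the 7 were below 0 and 1 was above 0. The summed linear signal of these markers was 19265 and 19144 in NOGGIN cultures, against 25091 and 18733 in control cultures. The part of macrophages in the Mmp12 ratio was not tested. Ctsk, a cysteine protease gene whose product degrades collagen and elastin, was lower at -0.67 ± 0.060 (limma adjusted p = 0.0113). With the deposited table's values, signs turned, the ratio was -0.99 for Ctsk and 1.03 for Mmp12. Of 8 measured fibronectin and integrin genes of 9 listed, 1 was higher and 1 lower, with a median of -0.13. Itga8, an integrin subunit gene of mesenchymal cells, was higher at 0.76 ± 0.085 (limma adjusted p = 0.00936). Fn1, which encodes the fibronectin on which microfibrils are laid down, was lower at -0.47 ± 0.064 (limma adjusted p = 0.0283), a call that 6 of the other settings lost. None of these list counts was tested against other genes, and the lists were chosen with earlier results known.

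**Figure D3:**
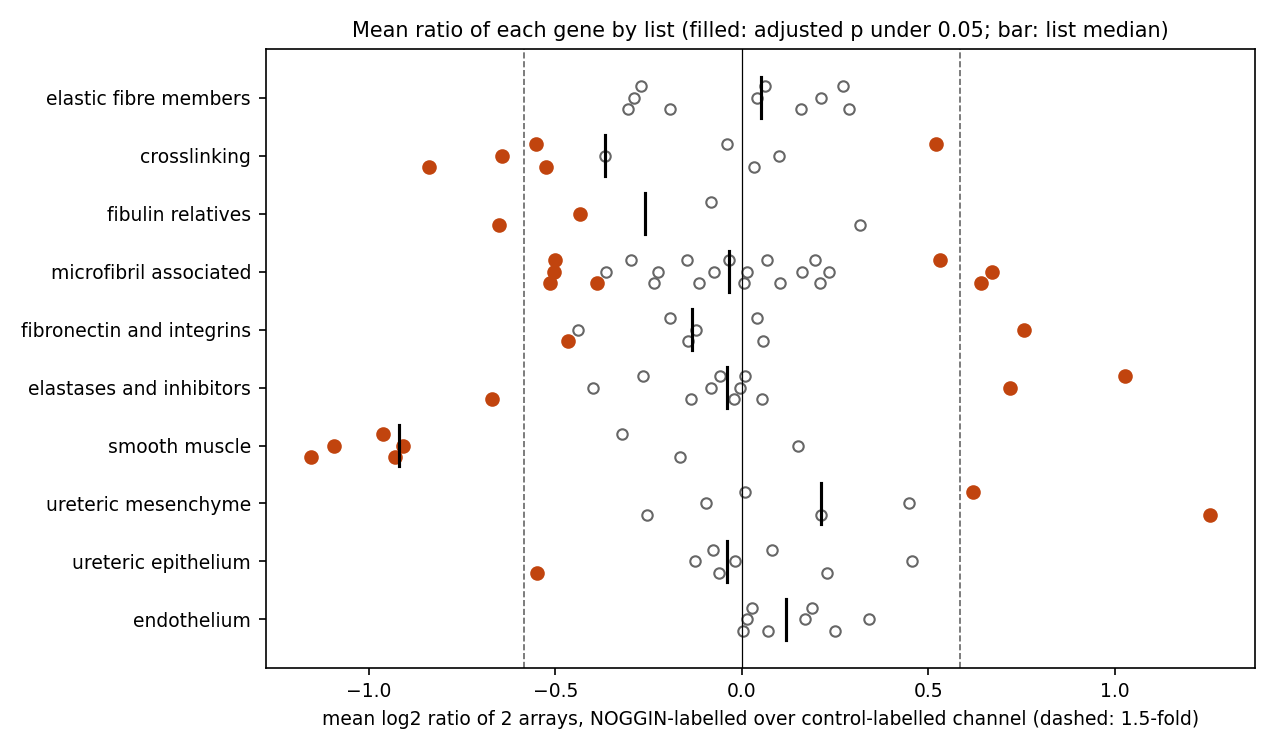
Mean log2 ratio over the 2 arrays of every measured gene in the elastic fibre set, in related lists and in marker lists of 4 cell types; filled points passed limma at an adjusted p of 0.05, black bars are list medians and dashed lines 1.5-fold. The elastic fibre genes lie between -0.30 and 0.29 with 0 filled points. Filled are 5 of 9 cross-linking genes, 2 of 4 fibulins and 7 of 23 genes of the microfibril list. So are 2 of 8 fibronectin and integrin genes and 3 of 12 elastase and inhibitor genes. Of the markers, 5 of 8 smooth muscle, 2 of 7 mesenchyme, 1 of 8 epithelial and 0 of 8 endothelial are filled. Over all genes 7.99% passed.

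Markers of smooth muscle and ureteric mesenchyme were among the genes that passed in the same comparison. Of 8 smooth muscle markers 5 were lower and 0 higher, with a median of -0.92. Acta2 at -1.16 ± 0.23 and Tagln at -1.09 ± 0.14 led, joined by Actg2 at -0.96, Cnn1 at -0.93 and Myh11 at -0.91. The other 3, Des at -0.32, Smtn at -0.16 and Myocd at 0.15, did not pass, and Myocd was above 0 on both arrays. Myh11 and these 3 were named after their values were seen. The summed linear signal of the 8 markers was 245749 and 256979 in the NOGGIN-labelled channels, against 508399 and 499749 in the control-labelled channels. Of 7 ureteric mesenchyme markers Tbx18 at 1.26 ± 0.27 and Tcf21 at 0.62 ± 0.14 were higher and 0 were lower, with a list median of 0.21 and with Pdgfra and Pdgfrb, named after their values were seen, at -0.25 and -0.095 without passing. The summed signal was 192462 and 173235 in NOGGIN cultures, against 153609 and 164163 in control cultures. Of 8 epithelial markers, with a median of -0.040, 1 was lower, Cldn4 at -0.55 ± 0.22, a call lost in 5 of the other settings. Of 6 kidney markers 2 were lower, Wt1 at -0.81 ± 0.39 and Foxd1 at -0.80 ± 0.20, while the other 4 were above 0 on both arrays without passing and the list median was 0.069. Among 8 endothelial, 6 neural and 4 measured red blood cell markers 0 passed with limma, against 2, 2 and 0 of them at an unadjusted p of 0.05. Every measured marker was well above background in all spots and channels, so 0 of the defining markers of these types was absent. The part of these cell types in the ratios of the elastic fibre genes was not tested.

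Other ways of processing left the picture of the 10 genes largely in place. The ranges given next cover the mean ratio in the settings tried, each array alone with the reported processing, and each second probe. Eln ranged from 0.25 to 0.30, Fbn2 from 0.023 to 0.33, Fbln5 from 0.058 to 0.18 and Lox from -0.64 to -0.14. Mfap5 ranged from 0.096 to 0.45, Fbln1 from -0.38 to -0.23, Mfap4 from -0.38 to -0.23 and Mfap2 from -0.29 to -0.16. Fbn1 and Fbln2 took both signs and never passed. Lox passed in 2 of 14 tested settings and the other 9 genes in 0. Centring each array on its median in place of loess pulled the arrays of several genes apart. On replicates 1 and 2 it gave -0.82 and 0.066 for Mfap4 and -0.64 and 0.054 for Mfap2. Fbln5 was at -0.13 and 0.24 there, and Fbn2 at -0.0079 and 0.24, so these genes also took opposite signs on the arrays. With that centring 0 of all genes passed in limma, against 3568 at an unadjusted p of 0.05. All calls of single genes given above were lost in that setting, while the ratios there were -1.25 for Acta2, -0.91 for Loxl1, 1.03 for Timp4 and 2.59 for Id2.

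**Figure D4:**
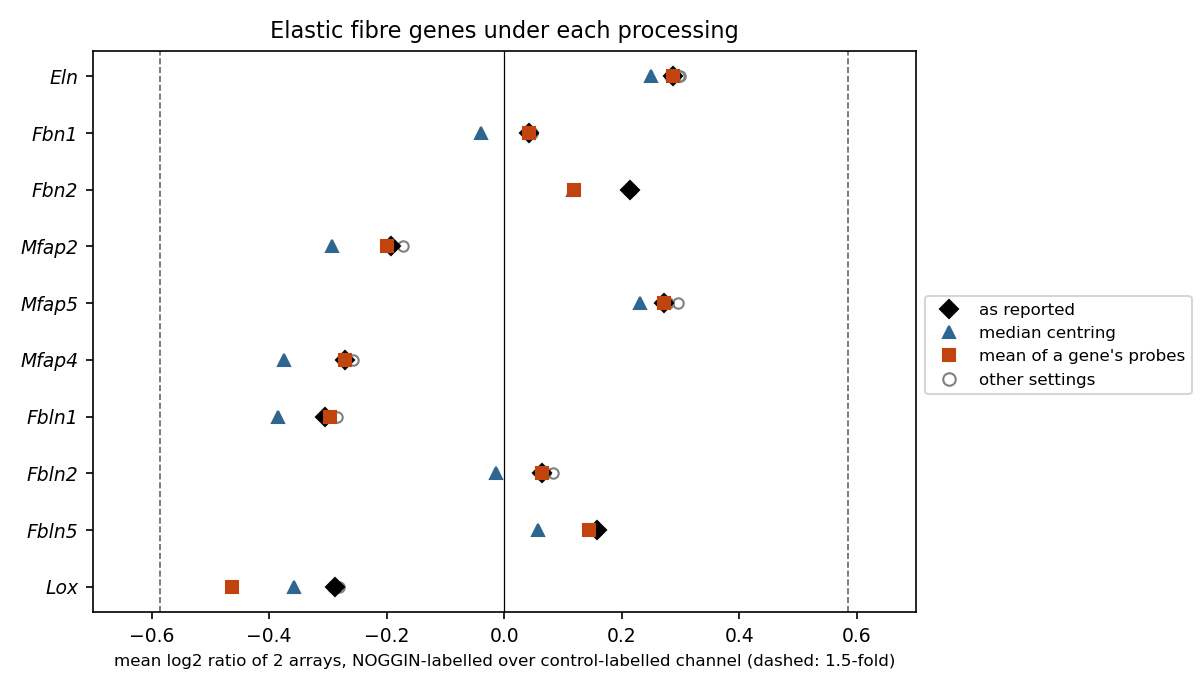
Mean log2 ratio of the 10 elastic fibre genes under each processing of both arrays; diamonds are the reported values, triangles median centring without loess, squares the mean of a gene's probes and open circles the other settings, most of them hidden behind the diamonds. Median centring moved every gene to the left, Lox moved to -0.46 with the mean of its probes, and no value passed the dashed 1.5-fold lines.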

How the data were processed

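The deposited scanner files hold linear spot intensities for both channels, which per the file headers and the submitters' processing notes were read by Agilent Feature Extraction, version 10.7.3.1, with flags for dim, saturated and outlying spots. Their log10 ratio of red over green is the software's own value, per the file headers, and was checked but not used. The authors' deposited table holds a score per probe and array, a signed fold change with ratios below 1 written as negative reciprocals. Its normalisation and any genome build are not given in the sources used here. Both columns have medians of 1. Over 13345 bright probes its log2 values ran against the label-oriented ratio of the same array (r = -0.981 and -0.985, slope -0.992 and -0.993; r = -0.723 and -0.727 with the other array). Columns and scale therefore match, and the direction is opposite.

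From 200 ng of total RNA per culture, amplified in 1 round per the labels' protocols, each array gave 39429 probes of 4 spots. Outlying spots, 3.69% on each array, were left out. Background was corrected with normexp (offset 50), arrays were normalised with loess, and channel levels were scaled between arrays with Aquantile. Probes were named through RefSeq accessions (GRCm38.p6; 28328 matched). A probe was kept when over a share of 0.5 of its spots were well above background in 1 condition on both arrays, and 21 more lacked a usable spot, leaving 26691 probes. The probe with the highest signal stood for a gene, giving 21316 genes. Log2 ratios were tested against 0 by a two-sided limma fit (version 3.58.1, R 4.3.3) with 95% intervals and Benjamini-Hochberg adjustment over all genes, on 1 residual and 4.13 prior degrees of freedom. The script was tested on simulated data.

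The members and lists were chosen with earlier results of these data known. All members were named, and of each list up to 4 genes past the threshold by size, or the 2 largest where fewer than 2 passed. Of the lists with fewer than 2 calls, these were Krt19 at 0.46, Cdh5 at 0.34, Emcn at 0.25, C1qb at -0.37, C1qa at -0.37, Sox10 at -0.29, Hbb-y at 0.036 and Hba-a1 at 0.027, which did not pass. Of the genes this rule picks, 1 is not reported here. The BMP targets Id3, Smad6 and Smad7 were higher by 1.45, 1.01 and 0.55. Alternatives covered background, normalisation, filter, spots, probes, moderation, threshold, the deposited table and each array alone. A single array has 0 residual degrees of freedom, so its values carry no test. No probe or protein sequences were used.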

Additional observations from a re-analysis of the deposited data

How the results depend on the processing

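The count of elastic fibre genes past the threshold stayed at 0 in 12 settings other than the reported one, and became 1 with the mean of a gene's probes, through Lox at -0.46. At an unadjusted p of 0.05 the count of elastic fibre genes was 6, and 3 to 7 in the other settings where it was taken. The count at 1.5-fold on both arrays, or on the array left when replicate 1 or 2 was taken out, was 0 in all 15 settings. Over all genes 1704 passed, with 378 at an adjusted p of 0.01 and 0 with median centring in place of loess (3568 at an unadjusted p of 0.05 there). The other 11 settings kept that count within 1.5 times of the reported one. Genes at 1.5-fold on both arrays numbered 618, against 949 with Agilent's processed signals and 946 with the deposited table. With 1 array they numbered 1087 without replicate 1 and 948 without replicate 2. At an adjusted p of 0.01, 1 cross-linking gene, 0 fibulins outside the set and 0 genes of the microfibril list passed. The call of Fn1 was lost with Agilent's processed signals (adjusted p = 0.0764), the deposited table (0.0850), a trended limma prior (0.0604), a trended and robust one (0.0540), median centring (0.358) and the stricter threshold, out of a range of 0.0180 to 0.358 in limma. Those of Efemp1 and Cldn4 were lost in 5 settings each, that of Adamts17 in 4, that of Wt1 in 3 and that of Mmp12 in 2, of which 1 was the separate-channel model of limma (adjusted p = 0.0851). Among the genes picked by the naming rule, none that passed changed sign in these settings. Testing the ratio within each array against 0 is itself the paired analysis of the conditions, so no other was run.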
